A study of Mus musculus with 8 samples.

Results

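Coenzyme Q, or ubiquinone, is the lipid that carries electrons in the inner mitochondrial membrane from the respiratory dehydrogenases to complex III. It is built from an aromatic ring and a long polyprenyl tail: Pdss1 and Pdss2 make the tail, Coq2 joins it to the ring, Coq3, Coq5, Coq6 and Coq7 modify the ring, and Coq4, Coq8a and Coq9 hold the enzymes together or keep them active. The heart depends on oxidative phosphorylation, and loss of these enzymes causes primary coenzyme Q deficiency, in which mitochondrial disease affects muscle, brain, kidney or heart. The 10 genes Pdss1, Pdss2, Coq2, Coq3, Coq4, Coq5, Coq6, Coq7, Coq8a and Coq9 were chosen by this known role, and all 10 were found by symbol among 50599 gene records and passed the filter on low values, as did 19959 genes in all.

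LRPPRC is an RNA-binding protein of the mitochondrial matrix that stabilises mitochondrial mRNAs. Whole-heart RNA of 12-week-old male C57BL/6N mice was sequenced in 4 control libraries (labelled wildtype), from animals with loxP sites in both copies of Lrpprc, and in 4 knockout libraries, from animals with the same alleles and a cre transgene that removes Lrpprc in heart and skeletal muscle. Both groups therefore carried the loxP alleles, and the promoter that drove cre is not given in the sources used here. All cells of the heart entered the RNA, including those without cre activity. The question for these genes was which steps of coenzyme Q synthesis differed in mRNA level when Lrpprc was lost.

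Depth was 35218541 to 47743376 expected counts per library, and mitochondrial rRNA took 44.01 to 46.86% of them in the wildtype and 65.63 to 67.84% in the knockout. Lrpprc itself fell from 3665 ± 216 normalised counts to 577.0 ± 48.6 (SD, n = 4 each), with every knockout library below every wildtype library. Normalised counts are read counts scaled between libraries by DESeq2 and adjusted for transcript length, log2 fold changes are knockout over wildtype, and a gene was called changed at a DESeq2 p under 0.05 after Benjamini-Hochberg adjustment over all genes. Knockout replicate 3 stood apart from the other knockout libraries, with a chi-square per degree of freedom of 33.4 to 48.4 against them compared with 13.5 to 28.8 among the other 3, so counts are also given without it.

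In the knockout hearts, 3 of the 10 synthesis genes fell and none rose. They were Coq8a (log2 fold change -1.01), Coq2 (-0.77) and Coq9 (-0.70), and 7 were not called. Over all genes tested, 33.7% were called, 15.5% lower and 18.2% higher. The groups did not overlap for Coq8a, Coq2, Coq9 and Pdss2, all 4 lower, where 16.4% of all genes were lower without overlap. The median log2 fold change of the 10 was -0.11, and that of all genes tested was 0.005. edgeR called the same 3 genes lower and none higher, with 19.6% of genes lower by that tool. Without knockout replicate 3, 5 were called lower, the additional ones being Pdss2 and Coq7, and none higher. In that fit 17.2% of all genes were called lower and 19.4% higher.

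**Figure D1:**
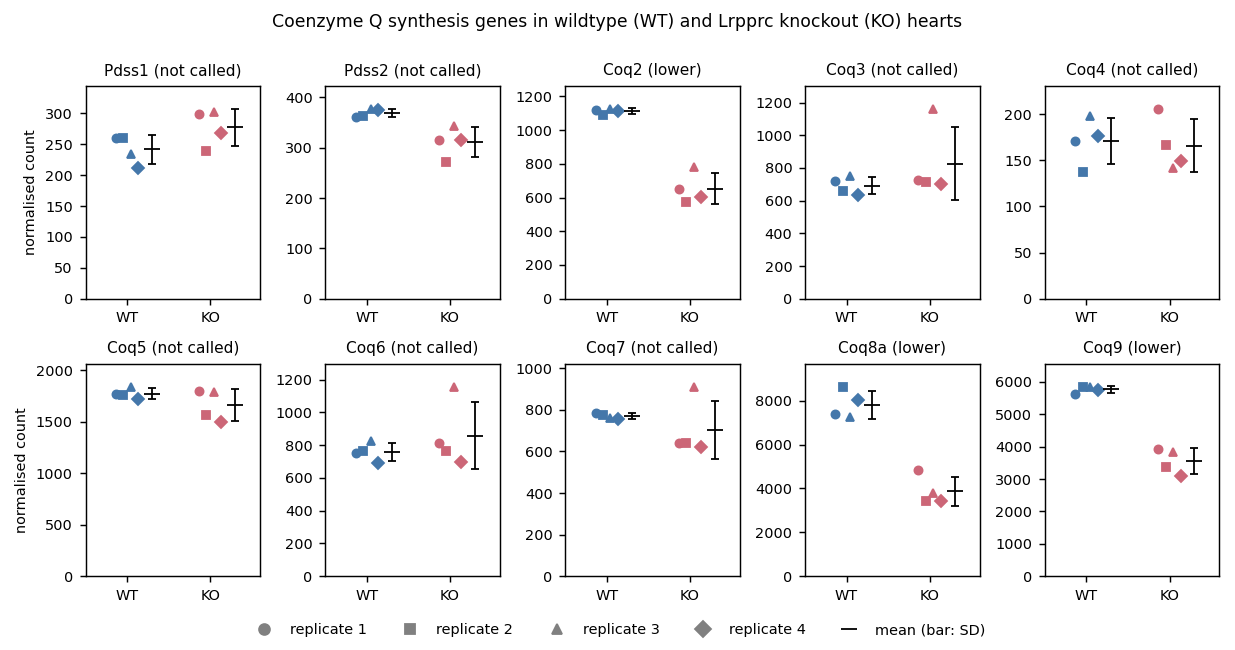
Normalised counts (vertical axes, from 0) of the 10 coenzyme Q synthesis genes in each wildtype (WT, blue) and knockout (KO, red) library; marker shapes give the replicate number, and the black mark with its bar is the mean with the SD of 4 libraries. Coq2, Coq8a and Coq9 separate clearly, and replicate 3 (triangle) is the highest knockout library for Coq3, Coq6 and Coq7.

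The tail is made by a synthase of 2 different subunits. Pdss1, the catalytic subunit (chr2:22895522-22940266, plus strand, GRCm38), had 260.7, 260.5, 234.3 and 212.5 normalised counts in the wildtype libraries and 298.6, 238.6, 303.2 and 268.9 in the knockout libraries. Its groups overlapped, with a log2 fold change of 0.20 (95% interval -0.08 to 0.48). Pdss2, the second subunit (chr10:43221486-43464882, plus strand), had 361.7, 363.9, 376.9 and 374.9 against 316.3, 270.9, 343.1 and 314.7. Every knockout library was below every wildtype library, but the log2 fold change of -0.25 (95% interval -0.48 to -0.02) did not pass the adjusted threshold (DESeq2 adjusted p = 0.0877). It passed without knockout replicate 3 (-0.30, DESeq2 adjusted p = 0.042) and in a fit that ignored transcript length (-0.29, DESeq2 adjusted p = 0.0277).

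Neither subunit of the synthase was called with all libraries. Their log2 ratio within a library, Pdss1 over Pdss2, does not depend on how libraries are scaled. It was -0.47, -0.48, -0.68 and -0.82 in the wildtype and -0.08, -0.18, -0.18 and -0.23 in the knockout. The ratio was higher in all 4 knockout libraries, by 0.45 on average (two-sided exact permutation p = 0.0286, which is the smallest that 4 against 4 allow; 0.0357 adjusted over the 5 gene pairs tested).

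Coq2, the membrane prenyltransferase that joins the tail to the ring precursor 4-hydroxybenzoate (chr5:100654723-100675140, minus strand), fell. It had 1122, 1090, 1125 and 1112 normalised counts in the wildtype and 652.3, 571.9, 781.5 and 604.1 in the knockout. The wildtype libraries lay close together and every knockout library lay well below them. The fold was 0.586 (log2 -0.77, SE 0.118, DESeq2 adjusted p = 1.07e-09). A pseudogene that resembles it at 96.5% identity, Gm6728, had at most 2.82 normalised counts in any library.

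Among the ring-modifying enzymes no gene was called. Coq6, the flavin-dependent hydroxylase (chr12:84361657-84373796, plus strand), had 751.2, 763.2, 827.0 and 689.6 normalised counts in the wildtype and 812.6, 763.1, 1158 and 697.0 in the knockout. Coq3, the O-methyltransferase of the pathway (chr4:21879673-21912162, plus strand), had 720.5, 657.2, 752.9 and 637.2 against 725.6, 714.1, 1161 and 702.5. In each case knockout replicate 3 was far above the rest and the groups overlapped. The log2 fold changes were 0.18 for Coq6 and 0.25 for Coq3 with all libraries, and 0.00 and 0.04 without that library.

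Coq5, the C-methyltransferase (chr5:115279666-115296972, plus strand), had 1769, 1762, 1844 and 1722 normalised counts in the wildtype and 1800, 1569, 1788 and 1499 in the knockout. Its groups overlapped and its log2 fold change was -0.09 (95% interval -0.28 to 0.09). Coq7, the hydroxylase of the penultimate step (chr7:118509659-118533356, minus strand), had 784.5, 777.0, 761.8 and 757.2 against 641.5, 641.1, 911.5 and 622.5. Knockout replicates 1, 2 and 4 were below every wildtype library and replicate 3 was above them all. The log2 fold change was -0.13 (95% interval -0.41 to 0.15, DESeq2 adjusted p = 0.53), and without replicate 3 it was -0.28 (DESeq2 adjusted p = 0.00618). The ratio of the methyltransferases, Coq3 over Coq5, was 0.32 higher in the knockout on the log2 scale, with overlapping groups (two-sided exact permutation p = 0.0857). Without knockout replicate 1 it was 0.41 higher (two-sided exact permutation p adjusted over 5 pairs, 0.0286), and without knockout replicate 3, the library high in Coq3, it was 0.181 higher (0.114).

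Of the genes that hold the pathway together, Coq4, which is needed for the assembly of the enzymes into a complex (chr2:29787493-29797935, plus strand), had the lowest counts. These were 170.8, 137.4, 198.4 and 176.1 in the wildtype and 205.6, 167.1, 142.0 and 148.9 in the knockout. The groups overlapped, and the 95% interval of the log2 fold change was -0.41 to 0.31.

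Coq9, the lipid-binding partner that presents the intermediate to Coq7 (chr8:94838321-94854895, plus strand), fell. It had 5617, 5849, 5853 and 5758 normalised counts in the wildtype and 3930, 3384, 3828 and 3082 in the knockout, with no overlap. The fold was 0.616 (log2 -0.70, SE 0.101, DESeq2 adjusted p = 8.09e-11). Coq7 and Coq9 work as a pair, and the log2 ratio of Coq7 to Coq9 within a library was -2.84, -2.91, -2.94 and -2.93 in the wildtype and -2.61, -2.40, -2.07 and -2.31 in the knockout. It was higher in all 4 knockout libraries, by 0.56 (two-sided exact permutation p = 0.0286, adjusted over 5 pairs 0.0357). With any wildtype library left out, the adjusted value was 0.0714.

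Coq8a, the atypical kinase-like ATPase that supports the complex (chr1:180165238-180199602, minus strand), had the largest change of the 10. Its normalised counts were 7374, 8646, 7236 and 8011 in the wildtype and 4822, 3435, 3799 and 3418 in the knockout. Even the highest knockout library, replicate 1, was far below the lowest wildtype library. The fold was 0.495 (log2 -1.01, SE 0.135, DESeq2 adjusted p = 1.41e-12). Of all genes tested, 5.4% were called lower with a log2 fold change at least as low as that of Coq8a, and 8.75% with one at least as low as that of Coq9.

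The promoter-side sequences of Coq8a and Coq2, the most strongly changed members, are shown because both genes fell and their RefSeq windows (GRCm38.p6) hold stretches outside annotated exons. Both stretches lie inside the outer limits that GENCODE M21 gives each gene. They run 5′ to 3′ on the minus strand, at chr1:180196076-180196270 for Coq8a and chr5:100674285-100674506 for Coq2. Capitals mark exact matches, on either strand, to the letters searched.
Coq8a: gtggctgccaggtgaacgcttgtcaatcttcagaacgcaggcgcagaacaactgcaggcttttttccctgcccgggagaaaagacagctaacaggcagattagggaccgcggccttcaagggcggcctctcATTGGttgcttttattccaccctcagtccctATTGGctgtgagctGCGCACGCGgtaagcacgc
Coq2: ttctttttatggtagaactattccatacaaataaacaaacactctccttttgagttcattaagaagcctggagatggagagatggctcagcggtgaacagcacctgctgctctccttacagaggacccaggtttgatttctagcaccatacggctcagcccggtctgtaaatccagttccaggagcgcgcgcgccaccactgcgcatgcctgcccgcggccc

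In Coq8a the capitals are a match to the NRF1 motif GCGCANGCG and 2 matches to the CCAAT box, read on the opposite strand as ATTGG. The Coq2 stretch held no match to any of the 8 motifs. Another RefSeq start of Coq8a gave a stretch at chr1:180193486-180193602, not shown, which held no match either. Windows of 250 bases before to 50 after the start were available for 9 of the 10 genes. A gene with several windows counted if any of them matched, whereas the shares of all windows are per window. The NRF1 letters were in windows of 2 of the 9 genes, Coq3 and Coq8a, and in 6.25% of 32851 windows of all genes. The CCAAT box was found for 3 of 9 (Coq6, Coq7 and Coq8a) and in 37.41% of all windows, and the ETS or GABPA letters CCGGAAG for 3 of 9 (Pdss1, Pdss2 and Coq6) and in 8.86%. The remaining motifs were AAGGTCA (ERR, 4.72% of all windows), TCACNCCAC (SREBP, 1.24%), AAGATGGCG (YY1, 1.4%) and CACGTG (E-box, 7.15%), each in the windows of 1 of the 9 genes, and TGATGNAA (ATF4 with C/EBP), in none of the 9 and in 3.97% of all windows. The E-box and SREBP matches both lay in Coq4. No motif was shared by Coq2, Coq8a and Coq9, and a match in letters is a description, not a site.

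Levels of different genes were compared as normalised counts per kilobase of effective transcript length. In the wildtype, Coq8a was highest at 4771 ± 395 (SD, n = 4), followed by Coq9 at 3836 ± 73.5. The other 8 genes were far below these: Coq7 at 1006 ± 16.7, Coq5 at 960.7 ± 27.7, Coq2 at 750.8 ± 10.6, Coq6 at 555.8 ± 41.3, Coq3 at 282.0 ± 22.0, Pdss2 at 186.2 ± 3.86, Pdss1 at 166.1 ± 16.0 and Coq4 at 123.1 ± 18.2. Only the neighbours Coq7 and Coq5 overlapped between libraries in that order, and the deposited TPM values gave the same order. The genes that fell, Coq8a, Coq9 and Coq2, ranked 1, 2 and 5 of the 10 by wildtype level.

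The knockout order was different at the top. Coq9, at 2364 ± 263 normalised counts per kilobase, and Coq8a, at 2361 ± 402, lay level with each other, with overlapping ranges. Coq2, at 440.4 ± 62.2, ranked below Coq6 at 629.1 ± 151, with overlapping ranges (Coq2 up to 527.6, Coq6 down to 511.2). Pdss1, at 190.3 ± 20.6, and Pdss2, at 156.9 ± 15.1, exchanged places with overlapping ranges. Of the summed level of all 10 genes, Coq8a made up 37.7% ± 2.11 in the wildtype and 28.0% ± 2.97 in the knockout.

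Coq8a, Coq2 and Coq9 were called lower under each of 3 scalings. The knockout libraries hold more mitochondrial rRNA, and scaling by total counts moved the median log2 fold change of all well-expressed genes from 0.019 to -0.277, while scaling by total counts without mitochondrial rRNA moved it to 0.444. Each gene moved by about the same amount, since these scalings change 1 factor per library. Coq8a was at -1.32 and -0.59, Coq2 at -1.07 and -0.35, and Coq9 at -1.0 and -0.28 on the log2 scale under the total counts with and without mitochondrial rRNA. By total counts, 6 members were called lower and none higher, with 29.6% of all genes lower and 9.64% higher. By total counts without mitochondrial rRNA, 3 were called lower and 5 higher (Pdss1, Coq3, Coq5, Coq6 and Coq7), with 5.43% of all genes lower and 38.9% higher.

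**Figure D2:**
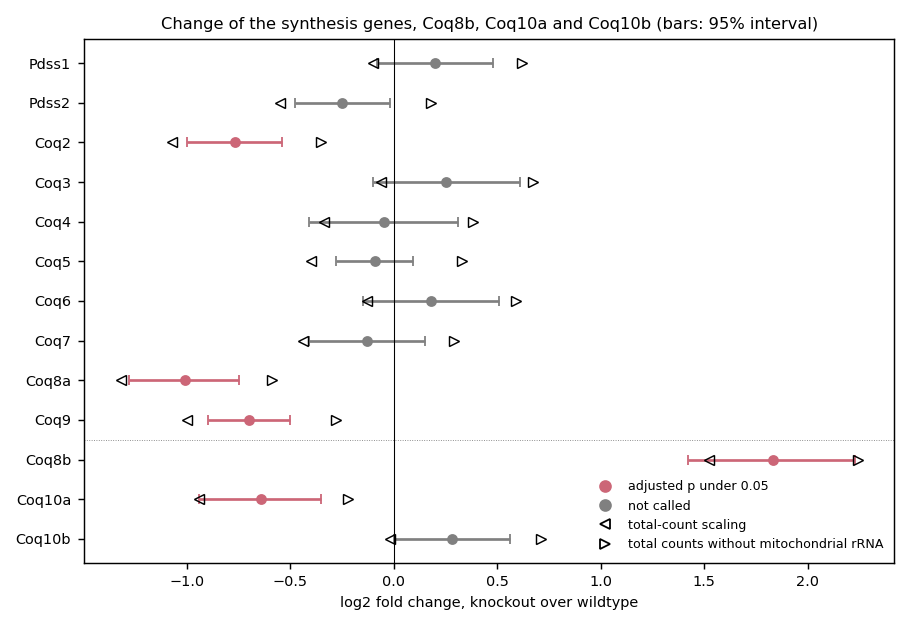
Log2 fold change of knockout over wildtype (horizontal axis) for the 10 synthesis genes and, under the dotted line, Coq8b, Coq10a and Coq10b; circles with bars are the DESeq2 estimate with its 95% interval, and open triangles are the estimates under 2 other scalings. Coq2, Coq8a and Coq9 lie below 0 and Coq8b lies above 0 under every scaling, whereas the triangles of each of the other 7 synthesis genes lie on both sides of 0.

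RSEM also gives each gene a mean transcript length in each library, which moves when reads are assigned to other isoforms. None of the 10 genes was called for a length difference by limma, where 116 of 9457 genes (1.23%) were. That number was 33 to 73 with any 1 library left out and 1 with a replicate block. Coq7 lengths ran from 930.4 to 938.8 bases in the wildtype and from 923.8 to 930.3 in the knockout. These ranges all but touched, and the shift was very small (limma adjusted p = 0.601). Coq8a averaged 1763 ± 92.9 bases in the wildtype and 1849 ± 56.4 in the knockout, with overlapping libraries.

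Of 12 auxiliary factors, which act on the synthesis enzymes, on their electron supply or on coenzyme Q itself, 3 rose, 3 fell and 6 were not called, beside 18.2% of all genes higher and 15.5% lower. By total counts 3 were called higher and 5 lower, with 9.64% and 29.6% of all genes, and without mitochondrial rRNA in the total 7 were called higher and 0 lower, with 38.9% and 5.43% of all genes. Coq8b, the paralogue of Coq8a (chr7:27233023-27257950, plus strand), rose from 87.38, 125.7, 100.6 and 142.9 normalised counts in the wildtype to 361.5, 346.7, 530.3 and 382.4 in the knockout. Every knockout library was above every wildtype library, with a fold of 3.54 (log2 1.83, SE 0.207, DESeq2 adjusted p = 4.41e-17). Coq8a and Coq8b thus went in opposite directions. Their log2 ratio within a library fell from 6.38, 6.09, 6.15 and 5.80 in the wildtype to 3.73, 3.30, 2.84 and 3.16 in the knockout, a difference of -2.85 (two-sided exact permutation p = 0.0286, adjusted over 5 pairs 0.0357). Coq8a remained the more abundant paralogue per kilobase in the knockout, at 2361 ± 402 against 216.3 ± 45.2 for Coq8b. The mean transcript length of Coq8b was 1952 ± 56.4 bases in the wildtype and 2132 ± 46.7 in the knockout, without overlap but not called (limma adjusted p = 0.0829).

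**Figure D3:**
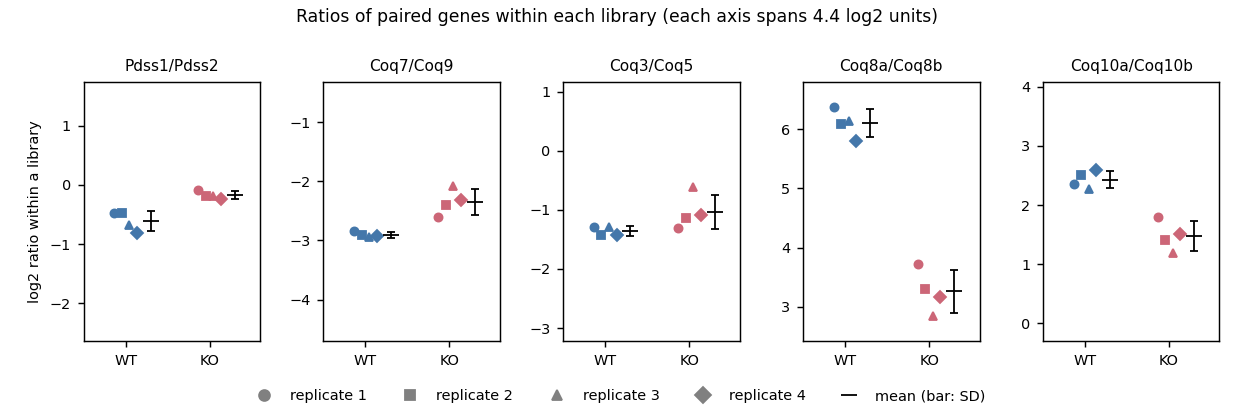
Log2 ratio of paired genes within each library (vertical axes, all spanning the same number of log2 units) in wildtype (WT, blue) and knockout (KO, red) hearts; marker shapes give the replicate number and the black mark with its bar is the mean with the SD of 4 libraries. The groups separate for every pair but Coq3/Coq5, and Coq8a/Coq8b moves most, from a mean of 6.11 to 3.26.

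The proteins that feed electrons to Coq6 rose in part. Fdxr, ferredoxin reductase, had 131.5, 118.1, 113.1 and 97.49 normalised counts in the wildtype and 239.2, 225.0, 266.4 and 271.1 in the knockout, without overlap (log2 1.13, DESeq2 adjusted p = 8.82e-12). Fdx2, a mitochondrial ferredoxin, had 209.4, 234.6, 266.5 and 232.3 against 500.8, 347.5, 384.5 and 426.1 (log2 0.81, DESeq2 adjusted p = 1.32e-06). Its value is uncertain because Gm38431 overlaps it on the same strand with a nearly identical sequence. The sum of Fdx2 and Gm38431 was 315.5 ± 23.4 in the wildtype and 500.6 ± 88.1 in the knockout, and the lowest knockout sum, 415.5, was above the highest wildtype sum, 345.0. Fdx1, the other ferredoxin, was not called (log2 -0.22, 95% interval -0.46 to 0.02).

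Coq10a, a coenzyme Q binding protein of the lipid-transfer domain family, fell from 2342, 2238, 2538 and 2332 normalised counts to 1994, 1459, 1270 and 1324, without overlap (log2 -0.64, DESeq2 adjusted p = 0.000154). It was not called when libraries were scaled by total counts without mitochondrial rRNA (-0.22, DESeq2 adjusted p = 0.279). Its paralogue Coq10b had 458.0, 390.9, 526.9 and 387.2 against 576.2, 552.4, 554.5 and 463.1, with overlap (log2 0.28, DESeq2 adjusted p = 0.117, and 0.38 with an adjusted p of 0.0293 without wildtype replicate 3). Scaled by total counts without mitochondrial rRNA, Coq10b was called higher (0.71, DESeq2 adjusted p = 1.77e-06). The log2 ratio of Coq10a to Coq10b fell in the knockout by 0.96 (two-sided exact permutation p = 0.0286, adjusted over 5 pairs 0.0357), with a mean of 2.43 in the wildtype and 1.47 in the knockout. As for Coq8a and Coq8b, the more abundant paralogue in the wildtype was the one that fell.

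Pptc7, a mitochondrial phosphatase (log2 -0.40, DESeq2 adjusted p = 9.6e-05), and Stard7, a lipid-transfer protein (log2 -0.33, DESeq2 adjusted p = 0.00735), also fell, but stood at 0.02 and 0.09 when scaled by total counts without mitochondrial rRNA. Hpdl, an enzyme of 4-hydroxybenzoate synthesis, had few counts, 22.26 to 38.57 in the wildtype and 35.73 to 72.58 in the knockout (log2 0.75, DESeq2 adjusted p = 0.0695, and 0.89 with an adjusted p of 0.0306 without knockout replicate 3). The distant relatives of Coq8a were not called, with log2 fold changes of -0.09 for Adck1, -0.16 for Adck2 and 0.51 for Adck5. In the fit that ignored transcript length, Adck2 was called lower (-0.48, DESeq2 adjusted p = 0.0419) and Adck5 higher (0.72, DESeq2 adjusted p = 0.00134). Without knockout replicate 3, 4 auxiliary factors were called higher, Hpdl being the addition, and 3 lower, with 19.4% of all genes higher and 17.2% lower.

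The supply of isoprene units to the tail was called at about the rate of all genes. Of 9 genes from acetyl-CoA to geranylgeranyl diphosphate, 1 rose and 2 fell, where 18.2% of all genes were called higher and 15.5% lower. Fdps, farnesyl diphosphate synthase, rose (log2 0.49, DESeq2 adjusted p = 0.00337), while Acat2, a cytosolic thiolase (-0.79, DESeq2 adjusted p = 0.00225), and Pmvk, phosphomevalonate kinase (-0.59, DESeq2 adjusted p = 0.0097), fell. The median of the 9 was 0.08. Without wildtype replicate 3, Pmvk was not called (-0.54, DESeq2 adjusted p = 0.0587), and without wildtype replicate 2, Ggps1 was also called higher. Fdps was not called when scaled by total counts (0.19), and Acat2 (-0.36) and Pmvk (-0.16) were not called when scaled without mitochondrial rRNA.

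Genes of enzymes that use coenzyme Q were examined next. The list held 14 genes of enzymes, or of their subunits and partners, that pass electrons to coenzyme Q, and left out complex I. Of these 14 genes, 1 rose and 7 fell, with a median log2 fold change of -0.49. Over all genes, 18.2% were called higher and 15.5% lower. Nqo1, the cytosolic quinone reductase, rose (log2 1.91, DESeq2 adjusted p = 1.12e-10), with 527.0 to 587.3 normalised counts in the wildtype and 1234 to 3683 in the knockout, the highest in replicate 3. Etfb, a subunit of the electron transfer flavoprotein of fatty acid oxidation (-0.79, DESeq2 adjusted p = 3.57e-07), and Sqor, sulfide quinone oxidoreductase (-0.62, DESeq2 adjusted p = 0.000347), fell, as did Sdha, Sdhb and Sdhc of complex II, Etfa and Etfdh. Etfdh was at the threshold (DESeq2 adjusted p = 0.0494, edgeR adjusted p = 0.0505), with knockout replicate 3 at 10045 against 5321 to 5684 in the other knockout libraries. Without that library 9 of the 14 were called lower, where 17.2% of all genes were. With any other library left out, Etfdh was not called.

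Of 9 nuclear subunits of complex III, which oxidises coenzyme Q, none rose and 5 fell, where 15.5% of all genes were called lower. Without knockout replicate 3, 7 were called lower, with 17.2% of all genes. Without wildtype replicate 2 or without knockout replicate 2, 3 were called lower (Uqcrfs1, Uqcrh and Uqcr11), with 13.7% and 14.3% of all genes. The median was -0.33. Uqcr11 (-0.79, DESeq2 adjusted p = 2.4e-10), the Rieske iron-sulfur protein Uqcrfs1 (-0.46, DESeq2 adjusted p = 0.00276) and Uqcrh (-0.39, DESeq2 adjusted p = 0.00652) fell the most. These lists follow the scaling. Without mitochondrial rRNA in the total, Uqcrh was at 0.03 and Uqcrfs1 at -0.04, neither of them called. In that scaling 1 of the 9 subunits was called lower and 3 higher. Of the 14 genes of enzymes that reduce coenzyme Q, 1 was called lower and 4 higher. Of all genes, 5.43% were then called lower and 38.9% higher. By total counts, all 9 subunits were called lower, and of the 14 genes 9 were called lower and 1 higher. Of all genes, 29.6% were called lower and 9.64% higher by total counts.

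**Figure D4:**
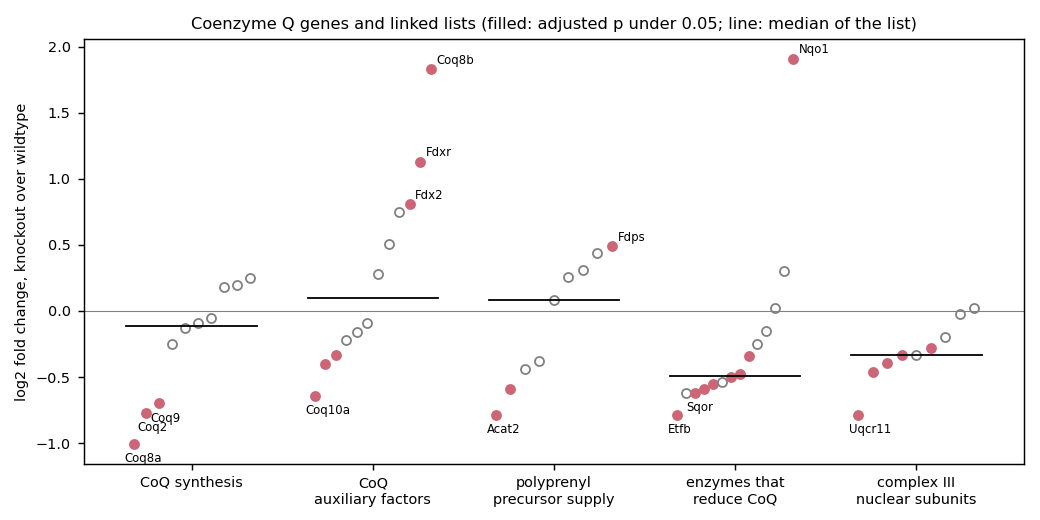
Log2 fold change of knockout over wildtype (vertical axis) for each gene of the 5 coenzyme Q lists, sorted within its list; filled points passed an adjusted p under 0.05, open points did not, and the black line is the median of the list. The synthesis genes have a median of -0.11 with 3 genes set apart below, and the auxiliary factors hold Coq8b, Fdxr and Fdx2 at the top.

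Markers of heart cells were read from the same fit, and their counts stand beside 18.2% of all genes called higher and 15.5% lower. Of 8 cardiomyocyte markers, 6 fell and 1 rose, and their summed normalised counts ranged from 1062886 to 1172900 in the wildtype and from 559057 to 712308 in the knockout. Of 5 macrophage markers 4 rose (sum 2083 to 2493 against 2645 to 5531), 2 of 5 smooth muscle and pericyte markers fell, and 1 of 5 fibroblast markers rose (sum 9802 to 10476 against 10293 to 16096). None of 5 endothelial, 5 erythroid or 4 tested adipose markers was called. Of 4 tested skeletal muscle markers 2 rose (Acta1 and Tnnt3) and 1 fell (Ckm). The myosin gene Myh1 averaged only 1.158 normalised counts in the wildtype and 3.316 in the knockout, and was not called. Of 5 atrial markers 1 rose and 2 fell. The median log2 fold change of the atrial markers was -0.96, with Myl7 and Sln lower. Their sum, 22320 to 24909 in the wildtype and 35603 to 54641 in the knockout, was higher through Nppa alone, the natriuretic peptide gene (mean 12548 against 41656 normalised counts). No marker was at 0 in all libraries. In bulk hearts, fewer cells of a type and less RNA per cell cannot be told apart, and the part of the markers in the changes of Coq8a, Coq2, Coq9, Coq8b and the other genes was not tested.

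Knockout replicate 3 was the highest knockout library for 6 of the 10 synthesis genes: Pdss1, Pdss2, Coq2, Coq3, Coq6 and Coq7. It also had the highest knockout sum of normalised counts for the synthesis genes (14216), the enzymes that reduce coenzyme Q (55924) and complex III (61699). Its endothelial sum, 8713, was below the 10667 to 15439 of the other knockout libraries, and its atrial sum, 35603, below their 45487 to 54641. Its cardiomyocyte sum (712308) was the highest of the knockout libraries. Its fibroblast (10293), macrophage (2645) and smooth muscle (12356) sums were the lowest. Each was within a few percent of another knockout library, but some markers stood further apart. Among fibroblast markers, Lum was at 250.1 against 1160 to 2196 in the other knockout libraries, while Dcn was within their range. Among macrophage markers, Adgre1 was at 81.13 against 347.5 to 457.0, while Cd163 was within their range. The erythroid sum of replicate 3 was 53861, and the next highest of the 8 libraries was knockout replicate 2 at 45829. Its mitochondrial rRNA share, 67.02%, lay within the range of the other knockout libraries. The part of these differences in the values of these genes was not tested.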

How the data were processed

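Whole-heart total RNA was depleted of cytoplasmic rRNA and sequenced in paired-end libraries, and samples were grouped by their titles. The authors made the deposited expected counts with RSEM 1.2.31 and Bowtie2, counted as reverse-stranded, against GENCODE M13 transcripts plus mitochondrial sequences with 50 added adenines. RSEM shares reads between similar genes. The deposited TPM and the other deposited values used, gene length and effective length in bases, also came from RSEM. The authors' own table of DESeq2 1.16.1 comparisons (fold changes and p-values) was not used, nor was a table whose 8 columns match no label.

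Expected counts were rounded and fitted with DESeq2 1.42.0 (R 4.3.3) on all 8 libraries, with effective lengths as an offset, genotype as the only term and no shrinkage. p-values were adjusted by Benjamini-Hochberg over all genes, and genes without an adjusted p were not counted as tested. Intervals are the estimate ± 1.96 SE. Lengths were tested with limma 3.58.1 in genes with a mean of at least 50 counts. A pseudocount of 1 was added before ratios were taken. The pair tests were exact permutation tests over 70 assignments. Alternatives were edgeR 4.0.16, other scalings and filters, a replicate term and each library left out.

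GENCODE M21 gave symbols and coordinates (GRCm38), and RefSeq (GRCm38.p6) the promoter windows. The genes named are the 10 synthesis genes, Lrpprc, every auxiliary factor and, in each other list, the 3 called members with the largest change. Sdha, Sdhb, Sdhc, Etfa, Etfdh, Ggps1, Myl7, Sln, Nppa and Gm38431 were named after their values were seen. So were Acta1, Tnnt3, Ckm, Myh1, Lum, Dcn, Adgre1, Cd163 and Gm6728. The members and all lists were chosen with earlier results of these data known. Scripts were tested on simulated data.

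No 2 replicates agreed within sampling noise (chi-square per degree of freedom 4.4 to 48.4). The study's methods describe 4 control and 4 knockout hearts, so p-values measure the spread between hearts.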

Additional observations from a re-analysis of the deposited data

Results flagged for a closer look

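In 6 of 64 groups of 4 libraries, the highest or lowest library stood apart from the others by Dixon's criterion, where chance alone would give about 3.2. Coq3 was at 1161 normalised counts in knockout replicate 3, against 702.5 to 725.6 in the other knockout libraries. Coq7 was at 911.5 in the same library, against 622.5 to 641.5. Pptc7 was at 3258 in wildtype replicate 3, against 3110 to 3128. Lrpprc was at 504.3 in knockout replicate 2, against 597.4 to 605.4. Uqcr11 was at 5143 in wildtype replicate 4, against 5279 to 5301. Uqcrh was at 6381 in wildtype replicate 1, against 6006 to 6066.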

How the results depend on the processing

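Coq2, Coq8a, Coq9, Coq8b, Fdx2 and Fdxr kept their direction and call in all 15 alternatives, with log2 fold changes of -1.07 to -0.35, -1.32 to -0.59, -1.0 to -0.28, 1.52 to 2.24, 0.52 to 1.24 and 0.83 to 1.55. Scaling by total counts turned Pdss1 to -0.10, Coq3 to -0.057, Coq6 to -0.14 and Coq10b to -0.019. It gave 6 members lower, 27 linked genes lower, and 1924 genes higher (9.64%) and 5912 lower (29.6%) of 19961 tested. Linked genes are the 12 auxiliary factors, 9 precursor genes, 14 genes of enzymes that reduce coenzyme Q and 9 complex III subunits. Leaving mitochondrial rRNA out of the total turned Pdss2 to 0.18, Coq4 to 0.38, Coq5 to 0.33, Coq7 to 0.29, Adck1 to 0.34, Adck2 to 0.25, Fdx1 to 0.20, Stard7 to 0.089, Pptc7 to 0.022 and Uqcrh to 0.03. It gave 5 members higher, 19 linked genes higher and 2 lower, and 7950 genes higher (38.9%) and 1111 lower (5.43%) of 20459 tested. These scalings differ from the main one by a single factor per library, which moves every gene together.

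Same-numbered libraries did not deviate together (correlations -0.082 to 0.093 over 12170 genes), so the numbers were not taken to pair samples. With a replicate block, the same 3 members were called, Pmvk was not called (-0.59, DESeq2 adjusted p = 0.0606) and the length differences called over all genes went to 1. With a library left out, length calls ranged from 33 to 73, the members called lower from 3 to 5 (5 without knockout replicate 3), and the log2 fold change from -0.161 to 0.032 for Coq4, -0.002 to 0.267 for Coq6 and -0.467 to 0.017 for Adck2, none of them called. The Coq7/Coq9 difference ranged from 0.465 to 0.646. The Coq3/Coq5 difference ranged from 0.181 to 0.41, its highest value and an adjusted p of 0.0286 coming without knockout replicate 1, and was 0.303 (0.0286) from the deposited TPM. The causes were not tested.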
